A study of Mus musculus with 2 samples.

Results

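Egr1, Egr2, Egr3, Nr4a1, Nr4a2, Nr4a3, Ier2, Ier3, Ier5 and Srf are early response genes outside the AP-1 family, and their RNA was measured in keratinocytes sorted from mouse skin. The genes were chosen by name, and all 10 were found among the 50559 genes of both count tables. The cells were live GFP+ keratinocytes from dorsal skin of Polr2b fl/fl GFP; K14-Cre mice at postnatal day 21, when follicles rest in telogen. The floxed Polr2b allele and the Cre are carried by both samples, so the series holds no unmodified control, and the keratin 14 promoter that drives Cre is active in basal epidermis and its follicular lineages. They were released with collagenase and trypsin, freed of dead cells by propidium iodide and sorted, and the labels do not say how many animals gave each sample. Both samples went through these steps, so early gene levels in skin and changes during release and sorting cannot be told apart here. The series is 1 group of 2 libraries of rRNA-depleted total RNA, made to set steady-state RNA beside nascent RNA; nascent RNA and undisturbed skin are not analysed here. With 2 libraries of 1 group no condition can be compared, so the levels are described with their spread, and tests compare the libraries with each other.

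Early response genes are switched on from pre-existing signalling proteins, without new protein synthesis, when cells meet growth factors, stress or mechanical change. Their RNAs are short-lived, and many of them encode transcription factors that pass the signal on to later genes. SRF, the serum response factor, stands upstream of many of them: it binds the CArG box together with ETS-type cofactors or with the actin-sensing myocardin-related factors. EGR proteins are zinc finger transcription factors that bind GC-rich DNA, and NR4A proteins are orphan nuclear receptors whose activity is set mainly by their amount. The IER genes share a name for their kinetics, and encode proteins without close kinship between all of them. In skin, SRF is known for its part in the actin cytoskeleton and in epidermal differentiation.

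Replicate 1 held 36692204 counts and replicate 2 held 33489967 counts. A gene is called detected here when it reached 1 CPM, its count scaled to the library total, in each library, which 15833 genes did. Basal keratinocyte markers were present, and all 9 passed 10 CPM in both libraries. They summed to 1.26% of counts in replicate 1 and 1.84% in replicate 2. Transcripts of other skin cells were present too. The 11 macrophage markers summed to 0.845% and 0.903% of counts and the 10 fibroblast markers to 1.41% and 0.700%, all of them above 10 CPM in both libraries. Scaled by gene length as well (TPM, defined below), the list medians were 227 for basal, 850 for macrophage and 148 for fibroblast markers. These levels therefore do not show what share of the cells were keratinocytes. Endothelial, mural, melanocyte and T cell markers summed to at most 0.0182% each, and Trdc of T cells had no count in either library. The libraries stood apart in sex-linked RNA: Xist had 112587 counts in replicate 1 and 11 in replicate 2, and Uty had 0 and 2394. The labels give no sex, but with Y-linked RNA almost wholly in replicate 2 the libraries came from different animals or pools, and sex and replicate cannot be told apart in any ratio between them. In this bulk RNA, more cells of a type and more RNA per cell cannot be told apart, and neither can the cell types that made the early gene RNA.

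Sequences just upstream of the start sites were examined for the sites of factors known to drive early genes, and those that differ most from other promoters are shown. RefSeq windows (build GRCm38.p6) were at hand for 7 of the 10 genes; Egr1, Egr3 and Ier2 had no entry. Each window below is the 250 bases before an annotated start, in the direction of the gene. Capitals mark the CArG box, searched as a 10-letter pattern on both strands, and the core of the cAMP response element, TGACG or its complement CGTCA.
Srf, chr17:46556163-46556412, minus strand: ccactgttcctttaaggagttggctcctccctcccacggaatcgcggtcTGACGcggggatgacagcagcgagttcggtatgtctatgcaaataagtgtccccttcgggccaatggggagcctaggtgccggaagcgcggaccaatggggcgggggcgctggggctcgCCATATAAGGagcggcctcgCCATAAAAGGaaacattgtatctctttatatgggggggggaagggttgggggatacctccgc
Egr2, chr10:67537619-67537868, plus strand: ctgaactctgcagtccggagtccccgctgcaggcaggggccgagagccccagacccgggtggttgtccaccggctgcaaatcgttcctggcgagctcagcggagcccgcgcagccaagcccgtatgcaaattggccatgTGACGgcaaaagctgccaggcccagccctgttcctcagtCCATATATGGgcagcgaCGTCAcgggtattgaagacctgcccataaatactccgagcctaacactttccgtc
Nr4a1, chr15:101266596-101266845, plus strand: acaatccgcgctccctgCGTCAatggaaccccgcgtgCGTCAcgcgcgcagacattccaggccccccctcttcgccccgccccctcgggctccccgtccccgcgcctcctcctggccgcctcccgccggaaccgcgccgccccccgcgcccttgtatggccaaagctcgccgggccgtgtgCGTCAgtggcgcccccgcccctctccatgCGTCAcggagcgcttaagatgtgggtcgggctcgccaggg
Nr4a2, chr2:57124004-57124253, minus strand: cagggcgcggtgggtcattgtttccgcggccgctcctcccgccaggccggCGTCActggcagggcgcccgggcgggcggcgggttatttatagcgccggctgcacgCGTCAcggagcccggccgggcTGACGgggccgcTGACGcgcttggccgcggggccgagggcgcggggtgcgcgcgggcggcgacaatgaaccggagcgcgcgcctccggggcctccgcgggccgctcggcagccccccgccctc
Nr4a3, chr4:48045055-48045304, plus strand: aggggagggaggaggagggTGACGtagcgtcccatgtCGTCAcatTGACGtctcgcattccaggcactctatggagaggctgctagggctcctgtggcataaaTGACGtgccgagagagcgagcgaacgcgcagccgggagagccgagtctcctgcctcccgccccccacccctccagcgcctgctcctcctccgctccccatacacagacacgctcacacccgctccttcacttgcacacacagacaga

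The Srf window held 2 CArG boxes, CCATATAAGG and CCATAAAAGG, which start 82 and 62 bases upstream of the start site. A CArG box was found in 1.47% of the 32851 windows of this length, and 2 or more in 6 of them. The Egr2 window held 1, CCATATATGG, 72 bases upstream, and the same box lies in 3 of the 5 overlapping or neighbouring Egr2 windows; another of the 5 holds CCTTTTTTGG. All 3 Nr4a windows held the TGACG core 4 times each. That core occurred in 17.8% of all windows and 4 times or more in 45 of them, or 0.137%. No member window held a CArG box apart from those of Srf and Egr2, and the windows of Ier3 and Ier5 held neither element. The full 8-letter element TGACGTCA, the AP-1 site TGANTCA and the NR4A site AAAGGTCA were found in none of the 7 genes' windows; their shares in all windows were 1.55%, 6.75% and 1.34%. The EGR site GCGNGGGCG was in the windows of Nr4a1, Nr4a2 and Srf, against 4.70% of all. The GC box GGGCGG, which can overlap the EGR site, was in all 7 genes, against 35.4% of all genes. The TATA box TATAAA, on either strand, was in the windows of Nr4a2 and Srf, against 14.3% of all genes. GC content ran from 54% in an Egr2 window to 80% in that of Nr4a2, and the shares over all windows or genes were not matched for it. A match describes the letters of the window, and no binding was measured.

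Egr1, a zinc finger factor induced by growth factors and stress, was by far the most abundant of the 10. It had 4607 CPM in the first library and 5226 CPM in the second, a mean of 4916 ± 438 CPM (SD, n = 2), and ranked 8 of 15833 detected genes. Per length it stood at 3715 and 4223 TPM (counts scaled by the deposited gene length and then by their total), rank 14. The genes next to it in mean TPM were Fos and the lysozyme gene Lyz2 above, at 4226 ± 4.34 and 3994 ± 1059 TPM, and the mitochondrial CYTB and the basal keratin Krt14 below, at 3917 ± 643 and 3806 ± 1099 TPM. The library values of these 5 genes overlapped, so their order is not settled by these libraries.

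Egr3 and Egr2, relatives of Egr1 with the same type of DNA-binding domain, were far scarcer. Egr3 had 172 CPM (replicate 1) and 237 CPM (replicate 2). Egr2, also known as Krox20, had 165 and 218 CPM. Neither gene's values came near those of Egr1 in either library. Of the summed counts of the 3 genes, Egr1 took 93.2% in replicate 1 (95% exact Clopper-Pearson interval 93.1 to 93.3) and 92.0% in replicate 2 (91.9 to 92.1). Egr3 took 3.48% and 4.17%, and Egr2 3.33% and 3.83%. The intervals, which cover counting error only, did not overlap between the libraries, so the share of Egr1 was slightly smaller in replicate 2. Egr4, the remaining EGR gene, best known from neurons, was scarce at 94 counts in replicate 1 and 320 in replicate 2, or 2.56 and 9.56 CPM.

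The Nr4a receptors were unequal too. Nr4a1, known as Nur77, had 919 and 1336 CPM in replicates 1 and 2, a mean of 1127 ± 295 CPM, and ranked 64 among detected genes by CPM and 293 by TPM. Nr4a3, known as NOR1, had 117 and 137 CPM. Nr4a2, known as Nurr1 and best studied in dopamine neurons, had 22.2 and 18.3 CPM, the lowest level of the 10 genes and the only one that was lower in replicate 2. Nr4a1 was higher than Nr4a3 in both libraries, and Nr4a3 higher than Nr4a2, without overlap. Nr4a1 took 86.8% of the family's counts in replicate 1 (86.5 to 87.2) and 89.6% in replicate 2 (89.3 to 89.8). The share of Nr4a2 was 2.09% (1.95 to 2.24) and 1.23% (1.13 to 1.33). Nr4a2 stood at 12.5 ± 1.67 TPM, rank 8050 of the detected genes, whose median was 13.0 TPM. Its nearest neighbours in mean TPM were Pir and Cdh5 above and Gba2 and Tmem209 below, all at 12.5 TPM. By TPM, the 3 genes with 4 TGACG cores each spanned the range from rank 293 to rank 8050, and a tie between cores and level was not tested.

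Among the Ier genes no single member dominated. Ier2, a nuclear protein gene, had 332 and 404 CPM in replicates 1 and 2. Ier3, which encodes a regulator of cell survival also known as IEX-1, had 313 and 323 CPM and differed least between the libraries. Ier5, a partner of heat shock factor, had 66.7 and 86.4 CPM. Ier2 and Ier3 took 46.6% and 44.0% of the family's counts in replicate 1 and 49.6% and 39.7% in replicate 2. Per length the order turned, because the Ier3 gene is shorter: Ier3 then held 52.5 ± 2.99% and Ier2 43.3 ± 2.56% of the family. The members of the other families kept their leading gene per length, with Egr1 at 95.8 ± 0.512% and Nr4a1 at 87.6 ± 2.26%. Of 2 further genes with an Ier name, Ier5l stood at 14.3 ± 0.531 CPM and Ier3ip1, a secretory pathway gene that is no early gene, at 20.2 ± 1.74 CPM.

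**Figure D1:**
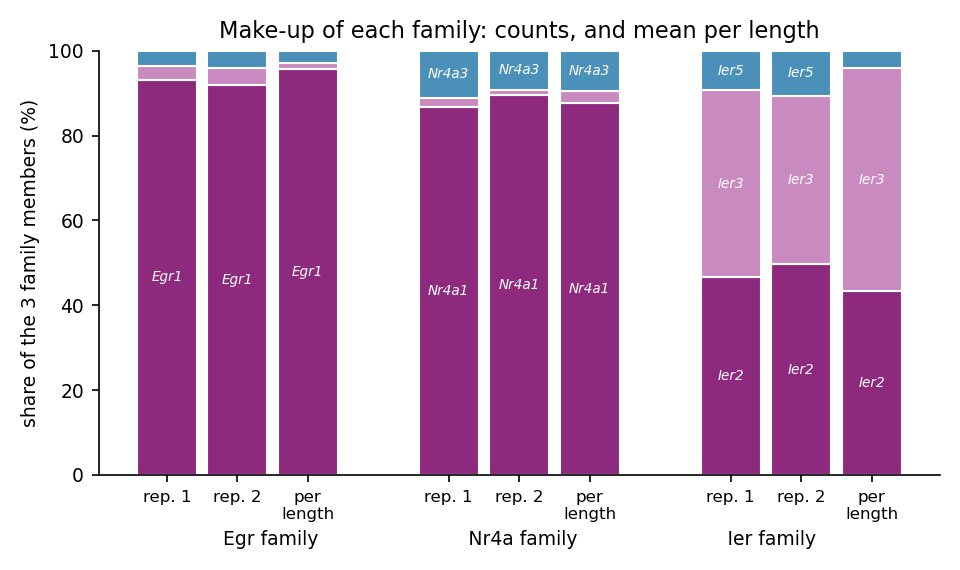
Share of each family's 3 members in percent, by counts in replicate 1 and replicate 2 and as the mean per length of both; segments from bottom to top are Egr1, Egr2 and Egr3, then Nr4a1, Nr4a2 and Nr4a3, then Ier2, Ier3 and Ier5. Egr1 holds 93.2% and 92.0% of Egr counts and Nr4a1 86.8% and 89.6% of Nr4a counts, while Ier2 and Ier3 each hold between 39.7% and 49.6%.

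Srf had 106 and 155 CPM in replicates 1 and 2, a mean of 131 ± 34.7 CPM, which placed it at rank 1617 by CPM and 2890 by TPM. Of its cofactors, the actin-sensing Mrtfa and the ETS factors Elk4 and Elk1 are the best known. Mrtfa had 42.3 ± 1.67 TPM, Elk4 35.9 ± 0.885 TPM and Mrtfb 19.6 ± 1.88 TPM, beside 49.5 ± 13.2 TPM for Srf itself. Myocd, the cofactor of smooth and heart muscle, was lowest at 1.09 ± 0.635 TPM. Cytoskeletal SRF targets were led by Actb at 6509 ± 455 TPM, Actg1 at 2384 ± 349 TPM and the myosin gene Myh9 at 277 ± 33.5 TPM, and Fhl2 was lowest at 3.22 ± 0.647 TPM. SRF targets of smooth muscle were scarce, with Acta2 at 26.6 ± 11.7 TPM, Myh11 at 10.1 ± 5.50 TPM, Cnn1 at 2.64 ± 0.817 TPM and Tagln at 0 counts in replicate 1 and 5 in replicate 2. By the binomial test described further on, 1 of 6 cofactors was higher and 3 were lower in replicate 2, 5 of 10 cytoskeletal targets were higher and 1 was lower, and the 3 smooth muscle targets with enough counts were all lower. Over all genes that test called 16.9% higher and 27.2% lower. edgeR's exact test called 0 of these, with an unadjusted p under 0.05 for 1 cofactor (Myocd) and 1 smooth muscle target. Acta2, Myh11 and Tagln are also among the 6 mural cell markers, of which the 5 with enough counts were all lower, at a median log2 ratio of -1.01 and a sum of 0.0182% and 0.00848% of counts; their part in the smooth muscle values was not tested.

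Together the 10 genes held 250219 counts, 0.682% of replicate 1, and 272635 counts, 0.814% of replicate 2. Ordered by mean TPM they were Egr1, Ier3 (724 ± 17.3), Ier2 (599 ± 83.7), Nr4a1 (391 ± 103), Egr3 (123 ± 27.5), Ier5 (58.0 ± 10.6), Egr2 (52.2 ± 10.3), Srf (49.5 ± 13.2), Nr4a3 (41.4 ± 4.70) and Nr4a2. This order was the same in each library. The values of Ier5, Egr2, Srf and Nr4a3 overlapped from neighbour to neighbour, at mean differences of 0.15 ± 0.02, 0.09 ± 0.10 and 0.24 ± 0.23 (log2), while the other neighbours did not overlap. The step from Egr1 to Ier3 was 2.45 ± 0.10 (log2), or 5.47-fold. By CPM, 2 of the 10 (Egr1 and Nr4a1) were in the top 1% of detected genes and 4 in the top 5%, with Ier2 and Ier3 added. By TPM the 2 in the top 1% were Egr1 and Ier3, Nr4a1 was in the top 1.85%, and the same 4 were in the top 5%. Only Nr4a2 was near the median of detected genes, 18.2 CPM.

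**Figure D2:**
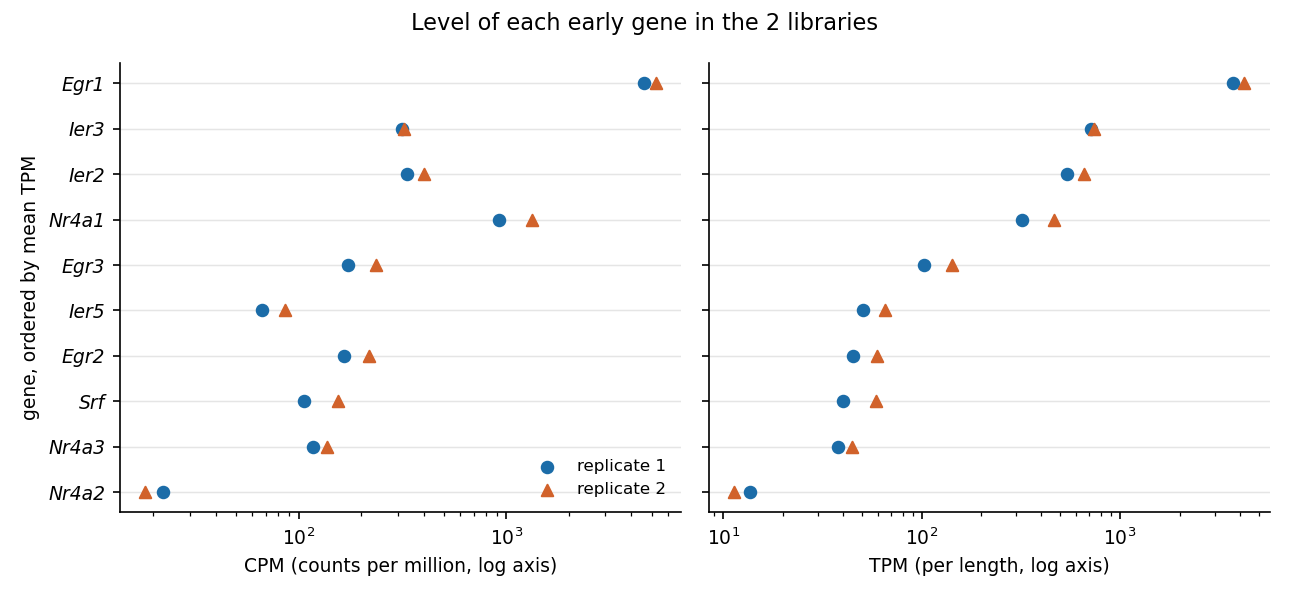
CPM (left) and TPM (right) of each gene in replicate 1 (circles) and replicate 2 (triangles) on log axes, ordered by mean TPM. Egr1 lies above all others at 4607 and 5226 CPM, Nr4a2 lies lowest at 22.2 and 18.3 CPM and is the 1 gene whose triangle is on the left, and Nr4a1 moves down 2 places from CPM to TPM.

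The middle of the order depended on the length used. The deposited length of Egr2 is 9083 bases, that of Nr4a1 7150 and that of Srf 6562, which is 3.06, 2.80 and 2.51 times the length of the annotated transcript with the longest coding sequence (GENCODE M21). For Ier2, Ier3 and Ier5 that ratio was 1.00, 0.964 and 0.998, and for Egr1 0.685. Per kilobase of that transcript, Nr4a1 stood second at 442 CPM per kilobase, before Ier3 at 281 and Ier2 at 242, and Egr2 came next at 64.5. Egr1 stayed first at 1096 and Nr4a2 last at 5.91 CPM per kilobase. Which transcripts the cells made was not resolved by the counts.

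**Figure D3:**
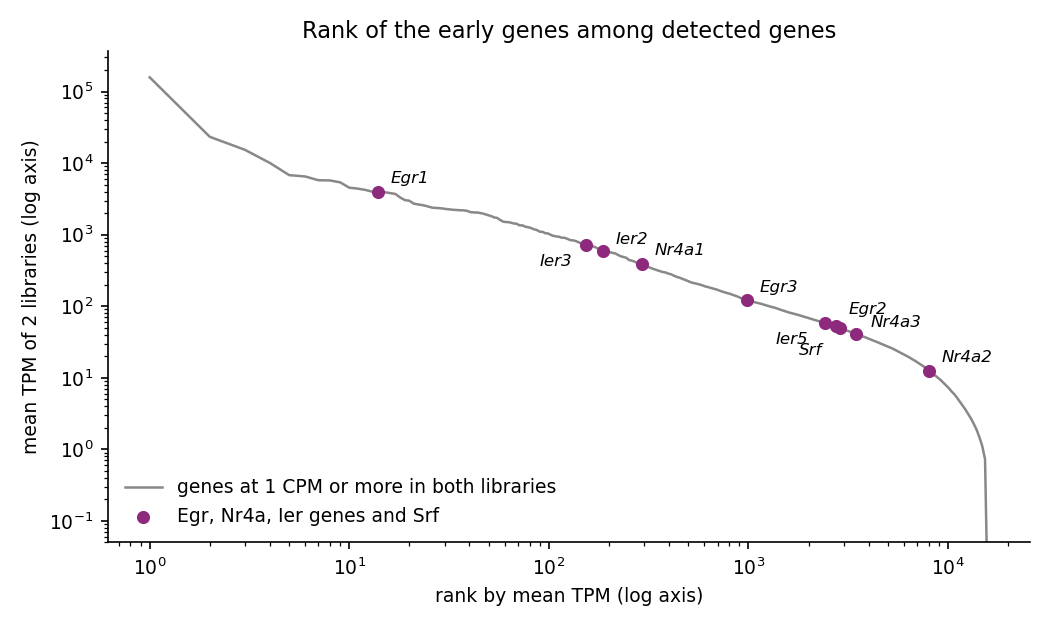
Mean TPM against rank by mean TPM, both on log axes, for detected genes (line) and for the 10 early genes (points). Egr1 sits at rank 14, Ier3, Ier2 and Nr4a1 between ranks 153 and 293, and Nr4a2 at rank 8050.

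Most of the genes are short in exons. In GENCODE M21, 6 of the 10 have 1 or 2 exons in the transcript used above: Ier2 and Ier5 have 1, and Egr1, Egr2, Egr3 and Ier3 have 2. Among 12868 detected coding genes the median was 9 exons, and 6.68% had 2 or fewer. The Nr4a genes have 8 exons each and Srf has 7, near that median. From the first to the last base, the Egr and Ier genes span between 1240 bases (Ier3) and 5237 bases (Egr3) and Srf 7847, while Nr4a1, Nr4a2 and Nr4a3 span 20527, 17174 and 37334 bases, beside a median of 22600.5. The pentamer ATTTA, the core of AU-rich elements through which short-lived mRNAs are bound by decay factors, occurred 3 times or more in the 3′ untranslated region of 6 of the 10, against 34.1% of detected genes. Egr3 had 7 copies, Ier3 and Nr4a3 5 each, Egr2, Nr4a1 and Nr4a2 3 each, Egr1 and Ier5 2, Srf 1 and Ier2 none. Ier3 had the highest density, 8.16 per kilobase. The median density of the 10 was 1.95 per kilobase, beside 1.19 over detected genes. Their 3′ untranslated regions were also longer, at a median of 1208 against 983 bases, and the copy numbers were not adjusted for this. The most abundant member, Egr1, was not among those richest in the pentamer, and a tie between the pentamer and RNA level was not tested. A longer AU-rich motif, a nonamer, was found in 1 of the 10 (Srf), against 7.10% of detected genes. No exon of another annotated gene overlapped an exon of the 10 in GENCODE M21. The annotation behind the counts is not given, and the deposited lengths of Egr2, Nr4a1 and Srf exceed those of the transcripts used here. Overlap within the exons that were counted was therefore not tested.

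Between the libraries the levels of 9 genes were higher in replicate 2 and that of Nr4a2 was lower. Nr4a1 was higher by a log2 ratio of 0.54 (95% exact interval 0.52 to 0.56), or 1.45-fold, and Srf by 0.55 (0.49 to 0.61), or 1.46-fold. The Egr genes followed at 0.46 for Egr3, 0.40 for Egr2 and 0.18 for Egr1, and Ier5, Ier2 and Nr4a3 at 0.37, 0.28 and 0.23. Ier3 was nearly level at 0.05 (0.01 to 0.08). Nr4a2 stood at -0.28 (-0.43 to -0.12), in the other direction from Nr4a1 and Nr4a3. A two-sided exact binomial test of each gene's counts, with the library totals as the expected ratio and adjusted by Benjamini-Hochberg over 23690 genes with 10 or more counts in all, called 9 higher and 1 lower. The adjusted p was 0.00125 for Nr4a2 and 0.0407 for Ier3, and smaller for the other 8. Over all tested genes the same test called 16.9% higher and 27.2% lower. Among the 7564 tested genes at or above the mean CPM of Nr4a2 it called 32.0% higher and 36.4% lower.

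This test counts reads and compares these 2 libraries only. The spread over all genes gave a coefficient of variation of 23.4%. Taken from the same 2 libraries, it includes the differences under test, so a gene not called is not shown to be equal. With that spread, edgeR's exact test called none of the 10 (adjusted p = 1 for each), and 0 of 10 had an unadjusted p under 0.05, the lowest being 0.257 for Srf. That test called 0.076% of all genes higher and 0.198% lower, and 7.59% of genes had an unadjusted p under 0.05. With the trended dispersion it again called none of the 10, against 0.0591% higher and 0.0929% lower. Scaled by total counts, none of the 10 differed by more than 1.5-fold, against 14.5% of detected genes. Detected genes reach down to 1 CPM, and this share was not matched for level. Under scalings described below some passed the 1.5-fold limit, and no share of detected genes was computed for these. Nr4a1 and Srf passed it with TMM (log2 ratios 0.617 and 0.624) and with DESeq2 size factors (0.623 and 0.631). Nr4a2 passed it with scaling to keratinocyte junction genes (-0.693). By total counts the median log2 ratio of the 10 was 0.33, beside -0.05 over detected genes. Of the 10, 8 lay above the upper quartile of detected genes, 0.16, which was also not matched for level.

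The sign of the ratios held under each scaling tried but 1. Scaling to 11 keratinocyte junction genes, of which 9 were themselves higher in replicate 2 and 1 was lower, moves the log2 ratio of every gene alike by -0.42, so positive ratios smaller than that turn by construction: Nr4a1 stood at 0.12 and Srf at 0.13, Egr3 at 0.04, and the other 7 were below 0, from -0.02 for Egr2 to -0.69 for Nr4a2. That scaling called 2 of the 10 higher and 5 lower, against 2.93% and 62.9% of all genes. Scaled by TMM the 10 stood 0.08 higher and the calls were 9 and 1, against 22.7% and 21.4% of all genes, and size factors from DESeq2 gave 9 and 1 against 23.2% and 21.0%. Without the filter on low counts the calls were 8 and 1, against 11.9% and 19.2%, and with totals free of mitochondrial genes and Rn7sk they were 8 and 1, against 16.3% and 27.8%; in both Ier3 was not called. The markers of other cells moved between the libraries as well. Of 10 fibroblast markers all were lower in replicate 2, with a median log2 ratio of -0.98, while the basal and spinous keratinocyte markers were all higher, at medians of 0.47 and 0.74. The 11 macrophage markers had a median of 0.01, with 4 higher and 4 lower. Mural, endothelial and melanocyte markers were lower, at medians of -1.01, -0.59 and -0.61. These calls are from the binomial test by total counts, which called 16.9% of all genes higher and 27.2% lower. edgeR's exact test at the common dispersion called 0 genes in each marker list. Its unadjusted p was under 0.05 for 6 fibroblast, 3 mural, 2 melanocyte and 1 spinous marker and for 0 basal, macrophage and endothelial markers, against 7.59% of all genes. With the trended dispersion it called 1 spinous marker. The part of these cell markers in the early gene ratios was not tested.

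**Figure D4:**
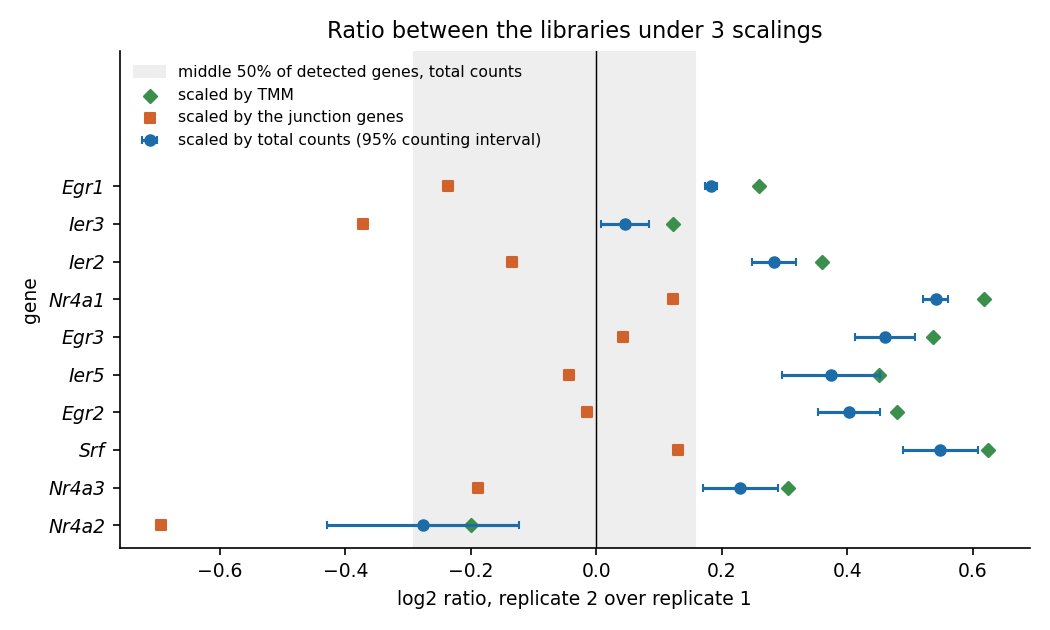
Log2 ratio of replicate 2 over replicate 1 for each gene, scaled by total counts (circles, bars are 95% counting intervals), TMM (diamonds) and the junction genes (squares); the grey band is the middle 50% of detected genes under total counts. By total counts 8 of 10 genes lie right of the band and Nr4a2 at -0.28 lies left of 0, and the junction scaling leaves Nr4a1, Srf and Egr3 right of 0.

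Of 8 AP-1 genes 1 was as high as Egr1 per length: Fos, which encodes a dimer partner of Jun proteins, led at 4226 ± 4.34 TPM, followed by Junb at 2539 ± 435 TPM and Atf3 at 2366 ± 5.44 TPM, and Fosl1 was lowest at 128 ± 65.5 TPM. The binomial test called 6 of the 8 higher in replicate 2 and none lower, at a median log2 ratio of 0.23; over all genes it called 16.9% higher and 27.2% lower, and among those at or above the mean CPM of Nr4a2 32.0% and 36.4%, which also stand beside the lists that follow. Of 30 other early genes, 28 passed 10 CPM in both libraries. The mRNA decay factor gene Zfp36 led at 2975 ± 436 TPM, before the phosphatase gene Dusp1 at 1422 ± 158 TPM and the antiproliferative Btg2 at 1157 ± 192 TPM. Dusp2 was lowest at 2.58 ± 0.602 TPM. In this list 18 were called higher and 4 lower, at a median of 0.18, and Ccn2, a matricellular protein gene, was lowest at -1.21. Of 7 heat shock genes, which encode chaperones, Hspb1, Hspa8 and Dnajb1 led at 2649 ± 432, 1743 ± 178 and 602 ± 133 TPM. Hsph1 was lowest at 11.5 ± 0.277 TPM, and 4 were called higher and 2 lower. edgeR's exact test called 0 genes of these 3 lists; an unadjusted p under 0.05 was given by 1 AP-1 gene (Fosl1), 1 other early gene (Ccn2) and 0 heat shock genes.

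Early genes best known from neurons differed in both directions. Arc, a regulator of synaptic endocytosis, had 42.8 and 109.6 CPM in replicates 1 and 2, a log2 ratio of 1.36, and Egr4 a log2 ratio of 1.90. The transcription factor gene Npas4 went the other way, with 31 counts in replicate 1 and 8 in replicate 2. Homer1, at 7.38 ± 0.324 TPM, differed by -0.09. Of the 5 genes in this list, the binomial test called 2 higher and 1 lower, against 16.9% and 27.2% of all genes. In edgeR's exact test the adjusted p was 0.0861 for Egr4, 0.249 for Arc and 0.377 for Npas4, so none was called. Its unadjusted p was under 0.05 for 3 of the 5, against 7.59% of all genes. With TMM scaling the adjusted p of Egr4 was 0.0405, in a test that called 0.0886% of all genes higher and 0.19% lower. With the trended dispersion that of Arc was 0.0323 and that of Egr4 0.1496.

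Genes for partners and upstream factors of the 10 were mostly present at moderate levels. The EGR corepressor genes Nab1 and Nab2 had 53.5 ± 3.31 and 42.9 ± 1.06 TPM. Rxra, which encodes a heterodimer partner of NR4A1 and NR4A2, had 127 ± 16.8 TPM, Rxrb 27.1 ± 0.237 TPM and Rxrg 0.523 ± 0.0145 TPM. Among 8 CREB factors and coactivators, the acetyltransferase genes Crebbp and Ep300 led at 98.8 ± 1.91 and 73.4 ± 2.25 TPM before the CREB relative Atf1 at 44.5 ± 0.0624 TPM, and Crem was lowest at 5.26 ± 0.793 TPM. In these lists the binomial test called 1 of 2 corepressors, 1 of 3 RXR genes and 1 of 8 CREB genes higher, and 3 CREB genes lower, against 16.9% and 27.2% of all genes. edgeR's exact test called 0 in each of these lists, with an unadjusted p under 0.05 for 0 genes.

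**Figure D5:**
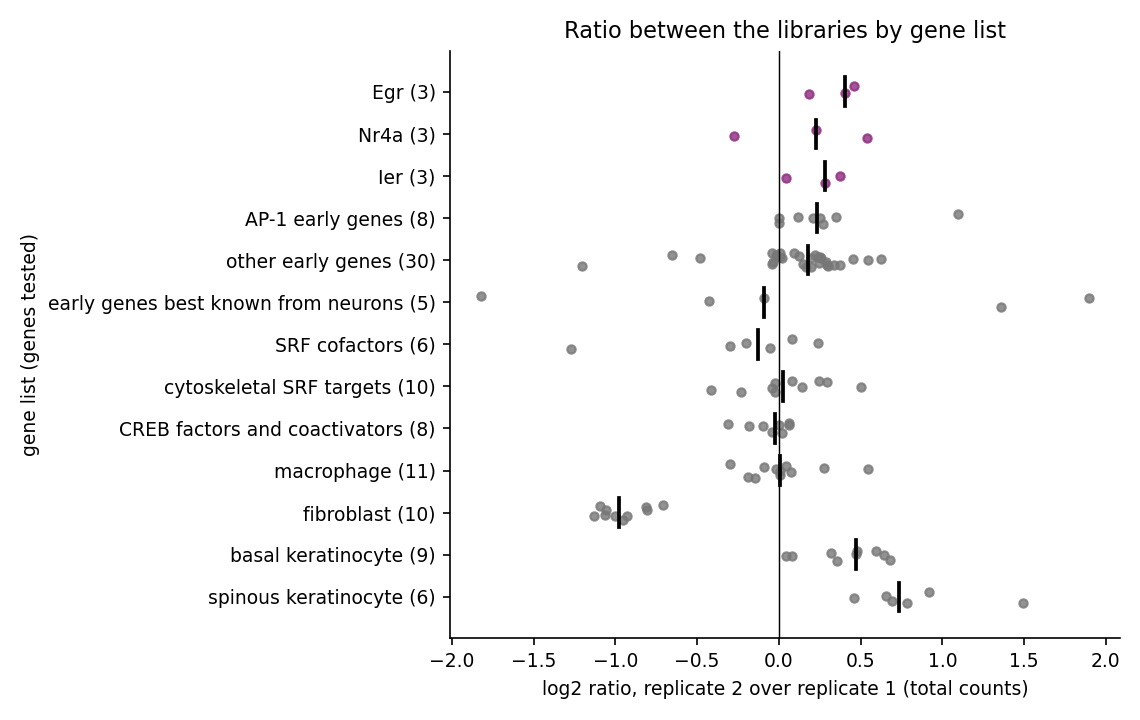
Log2 ratio of replicate 2 over replicate 1, scaled by total counts, for each tested gene of the Egr, Nr4a and Ier families and of context and marker lists; bars are list medians and the number tested is in brackets. Fibroblast genes lie together near -0.98 and spinous genes to the right at a median of 0.74, while the early gene families have medians of 0.40, 0.23 and 0.28.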

How the data were processed

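Total RNA of sorted cells was rRNA-depleted, made into libraries with the NEBNext Ultra II RNA kit and sequenced as paired 150-base reads, per the labels' protocols. Raw counts per gene and a gene length in bases were deposited; the authors made the counts with featureCounts, per the submitters' processing notes, which also name mm39. For the aligner, the annotation and the strand setting, nothing is given in the sources used here. Sex-linked RNA shows that the libraries came from different animals or pools, whose number is not stated. Binomial p-values cover counting error only, those of edgeR also the spread between these 2 libraries, which includes sex.

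CPM used the total of all counts, and TPM the deposited length. The binomial test compared each gene's counts with the ratio of totals, adjusted by Benjamini-Hochberg at 0.05, over genes with 10 or more counts. edgeR's exact test used the common dispersion of an intercept-only fit. Both were tested on simulated data, the binomial test with counting noise only and edgeR's test with a smaller spread than that of these libraries. How well they perform on these libraries was not tested. Alternatives were TMM, DESeq2 size factors, junction scaling, totals without mitochondrial genes and Rn7sk, no filter, the trended dispersion and other lengths. Detection at 1 CPM was 36.7 counts in replicate 1 and 33.5 in replicate 2.

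The 10 genes and the lists were chosen with earlier results of these data known. Named are all 10, and of each context list the 3 highest and the lowest by TPM. List genes without counts and the TPM neighbours of the highest and lowest member are named too. Of marker lists, sums, counts, medians and genes without counts are given. Some marker genes also appear as TPM neighbours or as smooth muscle SRF targets. Other names were chosen after their values were seen. Promoter windows came from RefSeq on GRCm38.p6 and transcripts from GENCODE M21, another build than the counts, and were matched by symbol. Software was Python 3.11.15, R 4.3.3, edgeR 4.0.16 and DESeq2 1.42.0.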

Additional observations from a re-analysis of the deposited data

How the results depend on the processing

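No paired analysis was possible because both libraries belong to 1 group. With 2 libraries, leaving out either gives the value of the other, so such values show the spread and do not test stability; without replicate 1, or with genes of 10 or more counts as detected, 6 members in place of 4 were in the top 5%. TMM, DESeq2 size factors and totals without mitochondrial genes and Rn7sk left the counts of called members within 1.5 times of 9 higher and 1 lower. Scaling to the junction genes gave 2 and 5, and 693 higher and 14910 lower over all genes. It turned Egr1 to -0.24, Egr2 to -0.0153, Nr4a3 to -0.19, Ier2 to -0.13, Ier3 to -0.37 and Ier5 to -0.0442 (log2), a shift set by the scaling itself. The call of Ier3 was lost without the filter on low counts (adjusted p = 0.0545) and with totals without mitochondrial genes and Rn7sk (0.101). edgeR's exact test, at common and at trended dispersion, called 0 members in either direction; over all genes it called 18 higher and 47 lower at common and 14 and 22 at trended dispersion. Of the context list genes, 39 were called higher and 17 lower by the binomial test, which called 16.9% and 27.2% of all genes. Junction scaling gave 7 and 73, under a scaling that called 2.93% of all genes higher and 62.9% lower. edgeR at the common dispersion gave 0 and 0, against 0.076% and 0.198% of all genes. The level of Ier3 was 330.7 CPM with totals without mitochondrial genes and Rn7sk. Per kilobase, the shares of the family were 95.8% for Egr1, 1.25% for Egr2, 2.94% for Egr3, 2.94% for Nr4a2, 43.3% for Ier2, 52.5% for Ier3 and 4.18% for Ier5. Of the 10 places in the order, 4 were the same by CPM and 2 per kilobase of 1 annotated transcript, an alternative chosen after seeing the data. Depth does not limit the members: the rarest, Nr4a2, had 813 and 613 counts, and the spread between 2 libraries limits what can be called.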
